A study of Homo sapiens with 5 samples.

Results

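Among the RNAs retrieved with SNHG5 from HCT-116 cells, 10 genes carried very high peaks with one of the probe pools, named Even, and no peak at the same place with the other, named Odd. The genes were ENTPD2, ZBTB20, NPLOC4, CSTF3, STRN3, YEATS2, SYT1, ARHGAP18, KDM4C and SUPT5H. They were chosen by the pileup and the p-value of their Even peaks and by the absence of an Odd peak there, so these values are given as a description and support nothing. All peaks of both lists that overlapped the hg19 gene bodies were taken, which gave 78 of the 8626 Even peaks and 2 of the 905 Odd peaks. In all, 5720 annotated genes had at least 1 Even peak over the gene body.

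HCT-116 is an established human colorectal carcinoma line, and the cells of all groups were cross-linked in 1% glutaraldehyde. The groups were 2 libraries of the Odd pool, 1 library of the Even pool (labelled #2, since the other replicate failed) and 2 control libraries, which the labels call input and the study's methods describe as a pull-down with a luciferase pool. Both probe pools are sets of biotinylated DNA oligonucleotides against different segments of SNHG5. A single peak list was deposited per pool, so replicate error could not be had for any value and samples could not be tested against each other.

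SNHG5 is a noncoding host gene of small nucleolar RNAs, and its spliced transcript is the bait. The gene is annotated at chr6:86360209-86388650 on the minus strand. In RIA-seq (RNA interactome analysis and sequencing) antisense oligonucleotides pull down a cross-linked bait RNA, and whatever RNA comes with it is sequenced and mapped to the genome. Separate pools with different oligonucleotides are used so that RNA retrieved with both can be told from RNA retrieved with only one. The oligonucleotides are antisense to SNHG5, so a run shared with SNHG5 in the same sense is complementary to any oligonucleotide that covers it. Whether such runs paired with an oligonucleotide in the pull-down was not tested.

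The sequences below carry the feature in which the strongest Even peaks of these genes could be set beside the bait. For each gene the window of 250 bp to either side of the summit of its highest Even peak was read on the gene's strand, and the longest exact run that also occurs in the bait was found. The bait was SNHG5-202, the shortest annotated SNHG5 transcript with 6 exons, 451 nt long. Capitals mark the shared run, all sequences are written 5′ to 3′ from GRCh37, and positions in SNHG5 count from 1 at the 5′ end of this transcript. The first group lies in the members, in the window around the peak, and the second group is the matching place in SNHG5, with the gene it matches. The runs of ZBTB20, CSTF3 and SUPT5H, of 9 nt each, are not printed.
ENTPD2, chr9:139944631-139944660, minus strand: ggtagggacaGGCGGGTGGctgggaacttt
STRN3, chr14:31439880-31439909, minus strand: agatggaggAGGAACAATGGttcccttgtg
SYT1, chr12:79346901-79346930, plus strand: aaaaagagcGGTGGTAGGAAtcaatgcatg
ARHGAP18, chr6:130016951-130016980, minus strand: gggaactttCTTTTAACAGTactttcagat
NPLOC4, chr17:79525498-79525527, minus strand: ccagggtgaTGAGTGTGGACGggggcacca
YEATS2, chr3:183524764-183524793, plus strand: ctctccgAGCCAGTGAAGATAAacatcaag
KDM4C, chr9:6805711-6805740, plus strand: agtacaaCATCCAGAAAAAAGCgatgactg
SNHG5, positions 34 to 63, matching ENTPD2: cgagcgtctgGGCGGGTGGtaggaacaatg
SNHG5, positions 45 to 74, matching STRN3: gcgggtggtAGGAACAATGGcgctgtcttc
SNHG5, positions 39 to 68, matching SYT1: gtctgggcgGGTGGTAGGAAcaatggcgct
SNHG5, positions 169 to 198, matching ARHGAP18: aacctgacaCTTTTAACAGTgaacagcgtt
SNHG5, positions 191 to 220, matching NPLOC4: acagcgttcTGAGTGTGGACGagtagccag
SNHG5, positions 208 to 237, matching YEATS2: gacgagtAGCCAGTGAAGATAAtgaatgtc
SNHG5, positions 388 to 417, matching KDM4C: agaaaacCATCCAGAAAAAAGCtcttcgtt

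The longest runs were those of YEATS2 and KDM4C, 15 nt each. The run of YEATS2 lay 31 bp from the summit and that of KDM4C 2 bp from it. In SNHG5-202, a bait chosen after values were seen, 0.733% of all stranded Even windows shared a run of at least 15 nt. Of the 767 stranded windows of the best Even peaks 3.26% did. With all basic SNHG5 transcripts as the bait such runs were common, in 17.8% of all Even, 14.1% of the best Even and 17.2% of the Odd windows. In the strongest windows of the 10 genes the share was then 30%. NPLOC4 shared 12 nt, 56 bp from its summit, at positions 200 to 211 of SNHG5, next to the run of YEATS2 at positions 215 to 229. Both fall in exon 4 of SNHG5-202, and the run of KDM4C falls in exon 6, at positions 395 to 409.

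A separate place near the 5′ end of SNHG5 held runs of the genes whose strongest peak lay in an intron. STRN3 shared 11 nt at positions 54 to 64, SYT1 11 nt at positions 48 to 58 and ARHGAP18 11 nt at positions 43 to 53. ARHGAP18 held another run of 11 nt, at positions 178 to 188, which its summit touched. The 9-nt run of ENTPD2, at positions 44 to 52, lay inside the stretch shared by ARHGAP18, and it occurred 7 times in the ENTPD2 window, between 1 and 135 bp from the summit. The remaining genes had runs of 9 nt only. These lay 192 bp from the summit in ZBTB20 and 205 bp in CSTF3, and in SUPT5H the run touched the summit. Runs of at least 9 nt, the length of the ENTPD2 run too, were in 69.4% of all stranded Even windows. The place near the 5′ end was not confined to intronic peaks. An 8-nt part of the ENTPD2 run was also in the windows of STRN3, ARHGAP18 and SUPT5H. Of these, SUPT5H had its strongest peak in coding sequence. The same 8 nt were in 13.1% of the 769 best Even windows with a strand.

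In total 6 of the 10 strongest windows shared a run of at least 11 nt with SNHG5 in the same sense. The same held for 39.0% of the best Even windows, 18.2% of all Even windows and 46.1% of the Odd windows, so the share among the 10 genes is set against a high level in strong peaks of either pool. Runs of at least 11 nt complementary to SNHG5 were present in 3 of the 10 windows and in 7.65% of all Even windows. Among the 68 other Even peaks of these genes, 4 had a same-sense run of this length, or 5.88%, and 9 a complementary one, or 13.2%. Over all 78 peaks complementary runs were thus no rarer, with 12 against 10 same-sense runs. The peak in exon 27 of YEATS2, with a pileup of 553, was the only strong one of the 4 with a same-sense run.

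The place of the run in SNHG5 was then set beside both pools. A run of at least 11 nt that touched positions 43 to 64 of SNHG5 was present in 3 of the 10 strongest windows, in 18.2% of 672 best Even windows without an Odd peak and in 0.498% of 803 Odd windows. Positions 178 to 229 were touched in 3 of the 10, in 9.82% of these Even windows and in 3.74% of the Odd windows. For positions 395 to 409, where KDM4C lies, the shares were 2.08% and 2.62%. These places were picked from the members' own runs, so their shares are descriptions. All basic SNHG5 transcripts, which add long isoforms of up to 5169 nt, were also read in place of SNHG5-202. The median run was then 12.5 nt in the 10 genes and 12 nt in all Even windows. A same-sense run of at least 11 nt was then present in 80% of the 10 windows. That was below the 88.7% of the best Even, 85.9% of all Even and 90.4% of the Odd windows. The oligonucleotide that covers each run was not identified here, and the part of the shared runs in the peaks was not tested.

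**Figure D1:**
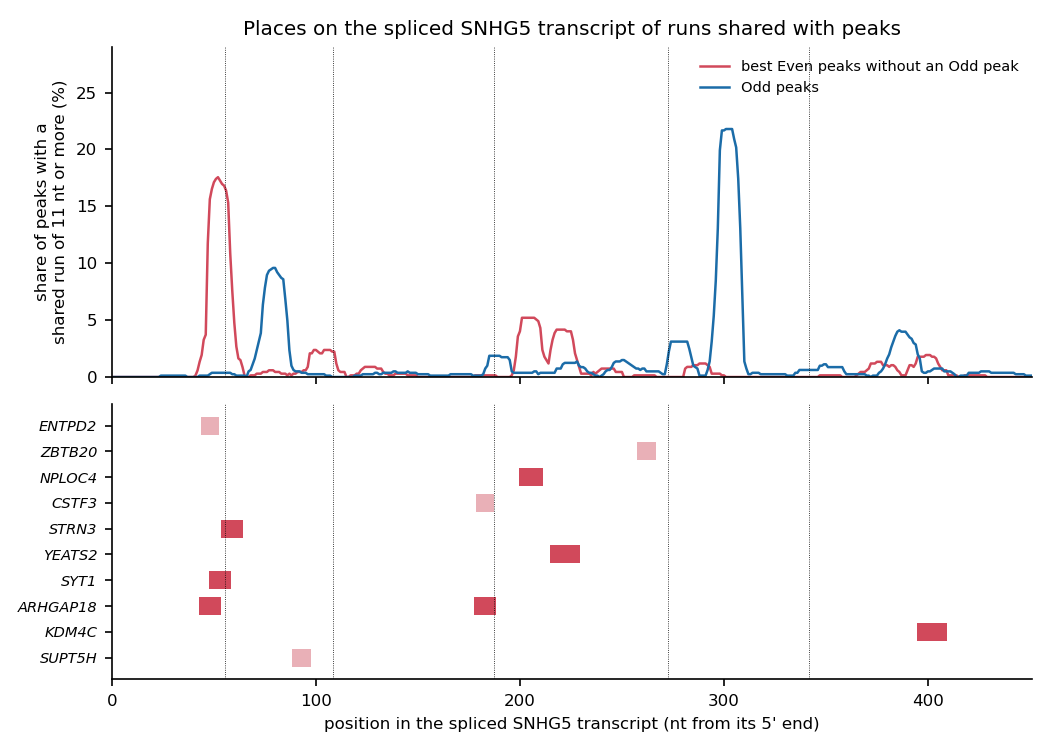
Top, the share of peaks (%) whose window around the summit shares a run of at least 11 nt with each position of the 451-nt transcript SNHG5-202 (x axis, nt from the 5′ end), for the 672 best Even peaks without an Odd peak and for 803 Odd peaks; dotted lines are exon borders. Bottom, the longest shared runs of the 10 genes, dark at 11 nt or more and pale at 9 nt; the Even curve is highest at position 52, where ENTPD2, SYT1 and ARHGAP18 also have runs, and the Odd curve at position 301, where none of the 10 does.

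Pileup is the deposited number of extended tags over the summit, with Even tags scaled up to the control library, and fold enrichment is pileup over the local control background. Each Even tag counts 2.03 scaled tags, so pileups convert to whole tags. The duplicate filter left 1965614 Even, 4904959 Odd and 3986040 control tags. The Odd list ends at a −log10 p of 26.74, whereas the median of the Even list was 7.04, and 1325 Even peaks (15.4%) reached the smallest Odd value. The 905 best Even peaks by p, as many as the Odd list holds, are used below where lists of like length are needed. Within the 10 genes 22 of the 78 Even peaks were among these, and 28 reached the smallest Odd value.

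None of the 78 Even peaks was overlapped by an Odd peak, and the nearest Odd peak lay 10292 bp away. Of the whole Even list 95.7% had no Odd peak over it, and of the best Even peaks 86.7%. The rule used this contrast, so nothing is read from it.

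The strongest peak of each gene had a pileup between 472 and 1281, against a median of 10 in the Even list and 117 among the best Even peaks. In tags, these were 233 to 632 per summit. The limit of 2 duplicates per position allows 1160 tags over a summit, and the 10 peaks reached 20.1 to 54.5% of it. NPLOC4 had the highest pileup and ARHGAP18 the lowest, and in fold enrichment ARHGAP18 was highest, with 651.7, and SUPT5H lowest, with 43.9. The control background was computed as pileup over fold, so it follows from both and is no separate observation. It was 25.8 control tags at NPLOC4, 20 at SUPT5H and 17.0 at YEATS2, and 0.724 at ARHGAP18, 1.45 at STRN3 and 2.00 at SYT1. The 6 strongest peaks with the summit in an exon had backgrounds of 4.06 to 25.8, and those of STRN3, SYT1 and ARHGAP18, which lie in introns, at most 2.00. ENTPD2, whose summit is also in an intron, had 8.99, within the range of the exonic ones.

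**Figure D2:**
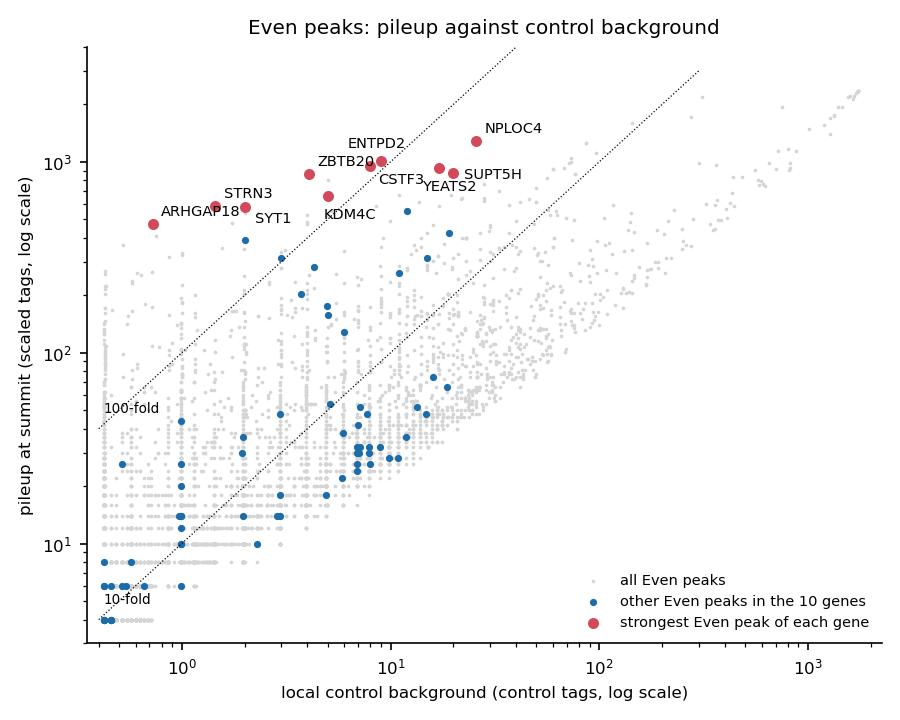
Pileup at the summit (scaled tags) against local control background (control tags), both on log scales, for the 8624 of 8626 Even peaks with a background (grey), the strongest peak of each of the 10 genes (red) and their other Even peaks (blue); dotted lines mark a fold enrichment of 10 and 100. The 10 strongest peaks lie along the upper edge, from ARHGAP18 (472 over 0.724) to NPLOC4 (1281 over 25.8), and the other peaks of the same genes lie among the rest of the list.

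By p, the 10 strongest peaks held ranks 1 to 4, 6 to 10 and 12 of the Even list, and by pileup ranks 24 to 115. Rank 5 was a 3′ UTR peak of C19orf47 with a pileup of 803 and rank 11 a 3′ UTR peak of TLCD4 with 541. Neither had an Odd peak and neither gene is among the 10. Just outside, at rank 13, was SPATS2 with a pileup of 1608 and a fold enrichment of 11.2, overlapped by an Odd peak. Ranks 14 and 15 were peaks in the annotated SNHG5 gene body, with pileups of 543 and 2200. The one at rank 14 touched no exon of the canonical SNHG5 transcript. The one at rank 15 covered exons 1 to 4, with a fold enrichment of 7.1 over a background of 309.9.

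By summit, the 78 Even peaks divided into 30 coding, 18 3′ UTR, 2 5′ UTR and 28 intronic peaks. The intron share was 35.9% (95% Wilson interval 26.1 to 47.0, counting error only), against 49.6% of all Even peaks and 41.2% of the best Even peaks. Coding sequence took 38.5% (28.4 to 49.6) of the peaks in the 10 genes, 21.2% of the Even list and 28.8% of the best Even peaks. For 3′ UTRs the shares were 23.1% (15.1 to 33.6), 9.0% and 10.1%. The peaks of the 10 genes were taken by gene body, whereas 11.3% of the Even list was intergenic, so these shares have unlike bases. Of the 18 peaks in 3′ UTRs 16 belonged to ZBTB20, so that share rests on 1 gene. Of the 5′ UTR peaks 1 lay in intron sequence of STRN3 and in the 5′ UTR of AP4S1, which starts on the other strand. Peaks are not replicates, and genes differ in length and exon number, so these shares were not tested.

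The strongest peak gathered most of the signal of its gene in 7 of the 10 genes. It held all of it in ENTPD2 and NPLOC4, which had 1 Even peak each, and 91.4% of the tags at summits in SYT1, 90.7% in ARHGAP18, 89.8% in STRN3, 79.5% in CSTF3 and 56.3% in ZBTB20. In SUPT5H, YEATS2 and KDM4C it held 49.3, 39.5 and 36.2%, and most of the rest lay in nearby exons. ZBTB20 had 26 Even peaks, more than any other protein-coding gene, KDM4C 16, YEATS2 9, CSTF3, SYT1 and SUPT5H 6 each, ARHGAP18 4 and STRN3 3. The peaks of ZBTB20, KDM4C and SYT1 reached down to a pileup of 4, or 2 tags.

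**Figure D3:**
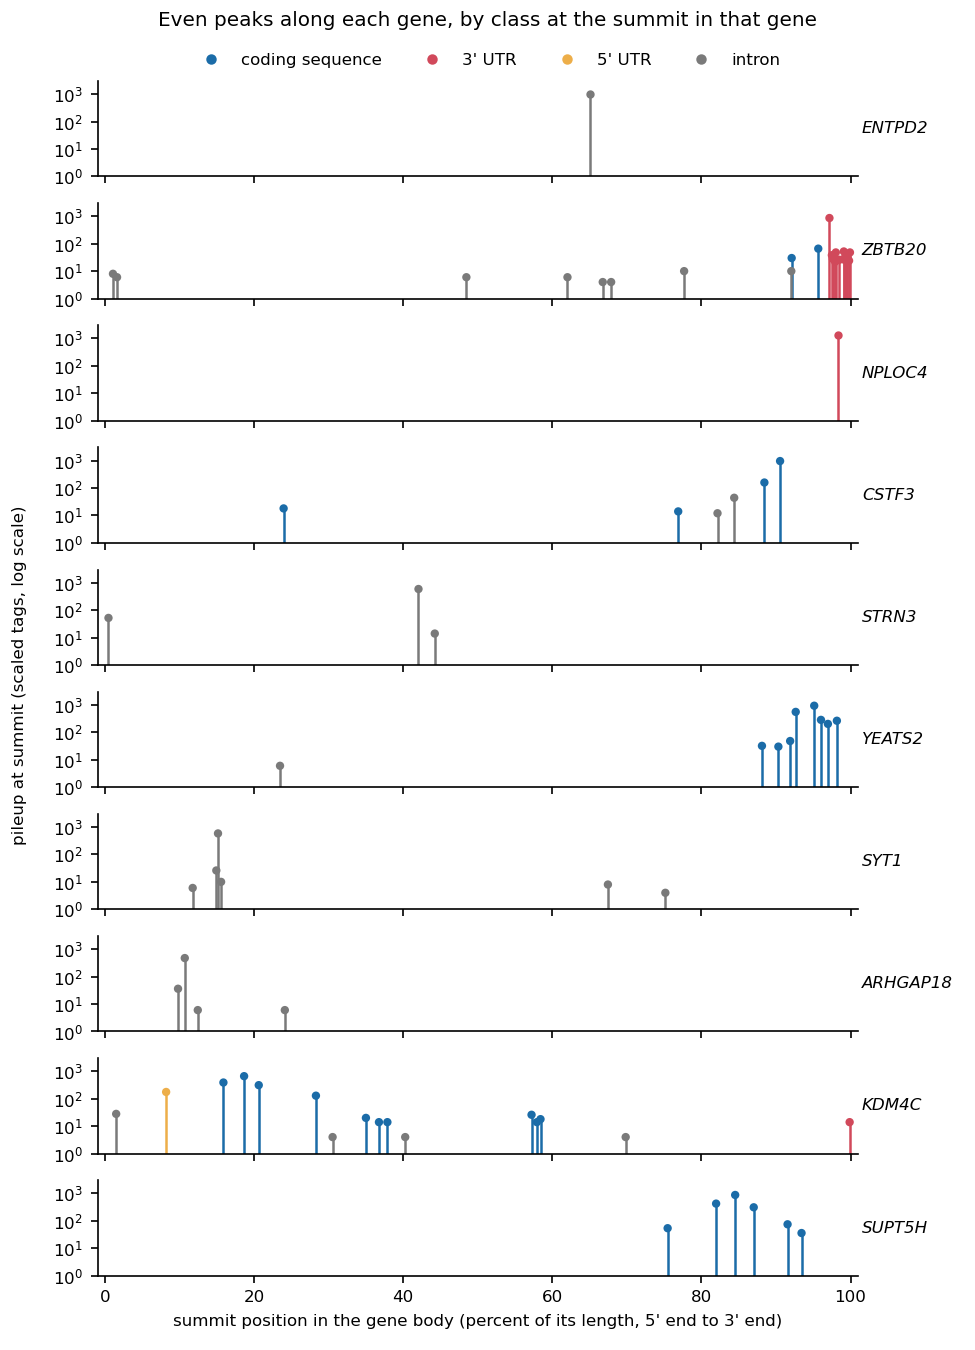
Even peaks along each gene body (x axis, percent of its length from the 5′ to the 3′ end), with the pileup at the summit (scaled tags, log scale) and the annotation at the summit in that gene as colour. ENTPD2 and NPLOC4 have 1 peak each, KDM4C, YEATS2, SUPT5H and CSTF3 have rows of coding peaks around the highest, and the 16 3′ UTR peaks of ZBTB20 crowd at its 3′ end.

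Within 4 genes the Even signal lay exon by exon along the mRNA. KDM4C, a histone lysine demethylase, spans chr9:6720863-7175648 (hg19, plus strand) and has 22 exons in the canonical transcript. Its highest peak was in exon 3, at chr9:6805356-6806073, with a pileup of 663, a background of 5.0 and a fold enrichment of 132.6. From there the pileup fell to 389 in exon 2 and 176 in exon 1 on the 5′ side, and to 312 in exon 4, 129 in exon 5 and 20 in exon 6 on the 3′ side. Exons 7 to 11 each held a peak of 14 to 26, and exon 22 one of 14. The summits of the 5 peaks with at least 10% of the highest spanned 91371 bp of the genome and 520 nt of the mRNA. The intervening introns are long, and the 4 peaks that lay in introns of KDM4C had pileups of 4 to 28. Fold enrichment was highest in exon 2, at 194.7, where the background was 2.00 and not 5.0, so the order by fold was not the order by pileup.

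YEATS2 encodes a reader of acylated histone lysines and a subunit of the ATAC acetyltransferase complex. The gene spans chr3:183415585-183530412 (plus strand), with 31 exons. Exon 28 was highest, at chr3:183524413-183525158, with a pileup of 928 over a background of 17.0 and a fold enrichment of 54.6. Next came exon 27 with 553, exon 29 with 283, exon 31 with 263 and exon 30 with 202. Exons 26, 25 and 23 had 48, 30 and 32. The signal thus covered the 3′ end of the mRNA. The summits of the 5 peaks with at least 10% of the highest spanned 431 nt of the mRNA and 6341 bp of the genome. The peaks reached further, as that in exon 31 was 2245 bp wide with 89.3% of its bases exonic. The remaining peak was in an intron near the 5′ end, with a pileup of 6. Exons 28 to 31 also overlap YEATS2-AS1 on the other strand, and whether the library keeps the strand is not given in the sources used here.

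SUPT5H, the large subunit of the transcription elongation factor DSIF, spans chr19:39926796-39967310 (plus strand), with 30 exons. All 6 of its Even peaks lay in coding sequence, between exons 12 and 27. The highest, at chr19:39960519-39961438 over exons 17 and 18, had a pileup of 878, a background of 20 and a fold enrichment of 43.9. The peak over exons 14 to 16 had 425 and the one at exon 19 had 312. Further out, exon 13 had 54, exon 24 had 75 and exon 26 had 36. These introns are short, so the genome and the mRNA gave a like picture. The summits of the 3 peaks with at least 10% of the highest spanned 2044 bp and 389 nt.

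CSTF3, a subunit of the cleavage stimulation factor that acts at mRNA 3′ ends, spans chr11:33098734-33183917 (minus strand), with 21 exons. Its highest peak, at chr11:33106119-33107789, covered exons 19 to 21 with the summit in the coding part of the last exon. The pileup was 957, the background 8.0 and the fold enrichment 119.7. Upstream, the pileup fell to 158 in exon 18, 44 at exon 17, 12 at exon 16 and 14 in exon 14, and exon 2 held a separate peak of 18. On the mRNA, exon 18 was 250 nt from the highest summit and exon 17 was 361 nt from it. TCP11L1 overlaps the 5 peaks from exon 14 to exon 21 on the other strand, in its introns.

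**Figure D4:**
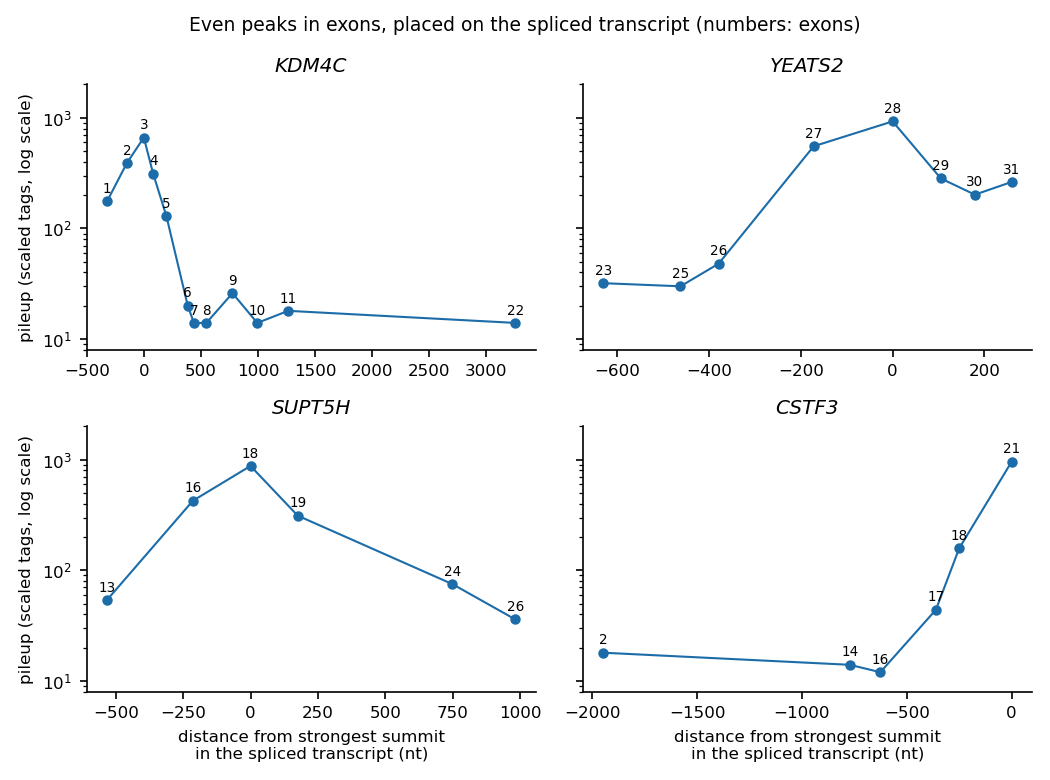
Pileup of Even peaks that overlap exons (scaled tags, log scale) against the distance from the highest summit in the spliced canonical transcript (nt), for KDM4C, YEATS2, SUPT5H and CSTF3, with exon numbers beside the points. The pileup falls to under 10% of the highest within 385 nt on the 3′ side in KDM4C and within 379 nt on the 5′ side in YEATS2, and in CSTF3 within 361 nt.

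In NPLOC4 and ZBTB20 the strongest peak lay in the last exon. NPLOC4, a cofactor of the VCP segregase in ubiquitin-dependent protein extraction, spans chr17:79523913-79615495 (minus strand). Its only Even peak, at chr17:79523911-79526299, was 2389 bp wide and lay almost entirely within the last of 17 exons, with the summit in the 3′ UTR. The pileup was 1281, the highest of the 10 genes, and with a background of 25.8, the highest as well, the fold enrichment was 49.7. No peak was listed over the other 16 exons. This peak was thus a single block at the 3′ end of the gene.

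ZBTB20, a zinc finger repressor of the BTB family, spans chr3:114033347-114866139 (minus strand), and its last exon is very long. The highest peak, at chr3:114055681-114058450 in this exon, was the widest of the 10, with 2770 bp. It had a pileup of 861 over a background of 4.06 and a fold enrichment of 212.3. A further 15 peaks lay downstream in the same 3′ UTR, between 2713 and 22908 nt from the highest summit. They had pileups of 22 to 52, backgrounds of 5.87 to 14.8 and fold enrichments of 2.58 to 6.42. They did not fall off with distance, as the farthest had a pileup of 48 and the nearest 38. Coding peaks in exons 11 and 10 had 66 and 30, with fold enrichments of 3.52 and 4.35. The remaining 8 peaks were in introns with pileups of 4 to 10 and backgrounds of 0.422 to 2.29. The highest peak had 12.9 times the whole tags of the next one. An unnamed transcript, ENSG00000259976, overlaps the distal 3′ UTR peaks.

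The strongest peaks of the other 4 genes had their summit in an intron, and all 4 were wide, from 1970 to 2541 bp. Over all 10 genes 7 strongest peaks were wider than 1500 bp, a limit set after the widths were seen. The share was 0.997% in the Even list and 8.95% among the best Even peaks. Great width was not particular to these genes. Near them in rank, the peaks of C19orf47 and SPATS2 were 2692 and 1746 bp wide, and those in the SNHG5 gene body 3110 and 3138 bp. The peak of TLCD4 had 1347 bp. ENTPD2, a cell-surface ectonucleotidase that hydrolyses extracellular ATP, is the smallest of the 10 genes, at chr9:139942559-139948513 (minus strand). Its peak, at chr9:139943462-139945918, covered 41.3% of the gene, and 33.7% of its bases were exonic, over exons 4 to 8 of 9. The summit was 95 bp from the nearest exon. The pileup was 1011, the background 8.99 and the fold enrichment 112.4. With short introns the peak could hold reads of spliced and unspliced RNA, and which of them it holds was not tested.

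STRN3, a striatin scaffold of the STRIPAK phosphatase complex, spans chr14:31363005-31495607 (minus strand). Its strongest peak, at chr14:31438876-31441416, held no exonic base, and the summit was 14398 bp from the nearest exon. It had a pileup of 588 over a background of 1.45 and a fold enrichment of 405.6. A small peak with a pileup of 14 followed in the same region, 11501 bp from an exon, and the last of the 3 lay at the 5′ end of the gene, with 52. No exon of STRN3 other than the first was touched by a peak.

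ARHGAP18 spans chr6:129897277-130031322 (minus strand). The strongest peak, at chr6:130015432-130017865, was again free of exonic bases, with the summit 14198 bp from an exon. The pileup was 472 and the background 0.724, against a genome-wide level of 0.428, and the fold enrichment of 651.7 was the largest of the 10 genes. The 3 other Even peaks were intronic too, with pileups of 36, 6 and 6. All 4 lay towards the 5′ end of the gene, between 9.80 and 24.1% of its length.

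SYT1, the calcium sensor of synaptic vesicle release and best known from neurons, spans chr12:79257773-79845788 (plus strand). Its strongest peak, at chr12:79346146-79348115, had 5.53% of its bases in exons of basic SYT1 transcripts, and its summit was 1073 bp from such an exon. The pileup was 582, the background 2.00 and the fold enrichment 291. Neighbouring peaks with the summit in an intron had pileups of 26 and 10, and the 3 others, of 8, 6 and 4, were spread over the gene. The peak of 10 had 22.2% of its bases in exons, and its summit was 14 bp from one. No summit in SYT1 lay in an exon. Across STRN3, ARHGAP18 and SYT1 the summits of the 13 Even peaks thus all lay in introns of these genes.

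The 2 Odd peaks in the 10 genes were far from the Even signal. In ARHGAP18 an Odd peak lay in the coding part of exon 12, at chr6:129920208-129920708, with a pileup of 93, a fold enrichment of 7.56 and rank 541 of the Odd list. It was 70903 bp from the nearest Even peak, and no Even peak lay in an exon of this gene. In CSTF3 an Odd peak lay in an intron, at chr11:33152671-33153094, with a pileup of 26, a fold enrichment of 40.6 and rank 739. It was 10292 bp from the small Even peak in exon 2 and 44882 bp from the strongest one. The Odd list was made from more tags than the control, and its tags were extended by 260 bp against 290 bp for Even. Odd and Even pileups are thus on different scales and were not set against each other. For the other 8 genes no Odd peak was listed. The Odd list ends at a smaller number of peaks, and weaker Odd signal in these genes was not analysed here.

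The base composition of the strongest windows did not stand apart. The GC content ranged from 34.3% in ZBTB20 to 61.3% in ENTPD2, with a median of 42.9% against 42.7% over all Even windows. Exact copies of 47 nt, the length of an Even tag, were counted over GRCh37 for each window. In 8 of the 10 genes each 47-nt sequence occurred at 1 place in the genome. At ENTPD2 19.8% of them occurred more than once, at up to 3 places, and at STRN3 2.20%. Copies with mismatches were not counted.

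Genes related to the 10 by family or complex were looked up as a set of 75 annotated genes. Of these, 16 (21.3%) had an Even peak, against 21.7% of all protein-coding genes, 4 (5.33%) one of the best Even peaks, against 3.25%, and 3 (4.0%) an Odd peak, against 3.45%. PPP2CA, the phosphatase subunit that works with STRN3 in STRIPAK, had the highest, in coding sequence, with a pileup of 624 and a fold enrichment of 22.3. CPSF1, which acts with CSTF3 in cleavage and polyadenylation, had an Even peak with a pileup of 338 and also an Odd peak. STRN, the paralogue of STRN3, had a 3′ UTR peak of 56, and ARHGAP5 an intronic one of 40 over 1749 bp. None of the 9 partners of SUPT5H, the 9 other synaptotagmins or the 6 BTB zinc finger genes looked up had a peak in either list. GAPDH, the negative control of the study, had none either.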

How the data were processed

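RNA pulled down with SNHG5 from HCT-116 cells was sequenced from 2 Odd, 1 Even and 2 control libraries, grouped by their titles. The authors aligned the reads with STAR (hg19). MACS 2.0.9 found peaks against the pooled control, with a p-value threshold of 0.001 for the Even and Odd lists. The −log10 p listed for Even peaks nonetheless goes down to 0.36, which is weaker than that threshold. For each peak the deposited lists give a pileup signal, a fold enrichment (ratio of pileup to local control background), a −log10 p-value and a −log10 q-value, of which the q columns were not used. The Odd list holds both libraries pooled, after the IDR step of the study, and the Even list 1 library. The lists hold no value per replicate.

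Background was computed here as pileup over fold, and Even tags as pileup over 2.02789, the ratio of control to Even tags, which gave whole tags for 100% of the Even peaks. Peaks were placed on GENCODE version 44 mapped to GRCh37 (class at the summit over basic transcripts, exon numbers in the canonical transcript). An overlap was 1 bp or more. The strongest peak of a gene is that of highest pileup. Sequences were read within 250 bp of the summit with pysam 0.24.0 and samtools 1.23.1, with further steps in pandas 2.3.3, numpy 2.4.6, matplotlib 3.10.9 and Python 3.11.15. The 95% Wilson intervals cover the counting error alone. Reads without molecular identifiers are not independent molecules.

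The genes named are the 10 members with every peak, SNHG5, GAPDH and, where they hold a peak, relatives of the members by family or complex. The rank neighbours C19orf47, TLCD4 and SPATS2 mark the edge of the rule. The members and lists were chosen with earlier results of these data known. Alternatives covered the peak threshold, the overlap rule, the transcripts used and the sequence window. Overlap and shared-run steps were tested on simulated data, where 80 of 80 planted overlaps and 200 of 200 planted runs were found.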

Additional observations from a re-analysis of the deposited data

How the results depend on the processing

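The number of Even peaks in the 10 genes depended on the threshold. It was 78 in the whole list, 22 among as many of the best Even peaks by p as the Odd list holds and 21 among 0.5 times that number, and it was 58 when a peak had to touch an annotated exon. The Odd count was 2 as deposited, 1 when an exon had to be touched and 0 when the Odd list was cut to 0.5 times its length by p. The share of Even peaks with the summit in an intron was 35.9%, and the share that overlapped no exon of any annotated gene was 24.4%. The count of 58 rests on another set of exons, so it and this share do not add up to the whole. All 78 Even peaks stayed without an Odd peak when the distance was widened to 10 kb. The median GC content (41.3 to 46.3%) and the median longest run shared with SNHG5 (11 to 14 nt) moved by less than their spread over the 10 genes under each window, strand and transcript set tried. The shared runs in SNHG5-202 alone, and those in the spliced mRNA, were chosen after seeing the data. No paired analysis was possible because the lists give 1 value per pool and no value per library. For the same reason no library could be left out, and the depth of the single Even library, with peaks down to 2 tags, limits what the weaker peaks show.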
